A study of Mus musculus with 6 samples.

Results

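The genes described here are regulators and marker genes of epithelial-mesenchymal transition (EMT), chosen by name: the cadherins Cdh1 and Cdh2, the epithelial adhesion molecule Epcam, the intermediate filament gene Vim and the transcription factors Snai1, Snai2, Zeb1, Zeb2, Twist1 and Twist2. Of these 10 genes, 9 had a probe set that the platform annotation gives to 1 gene symbol, out of 30142 genes measured in that way. The probe set of Zeb2 is also annotated to the microRNA gene Mir5129, so no value is given for Zeb2. Each of the 9 genes had 1 such probe set.

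The tumours came from 3 mice, named C1M3, C1M5 and C2M3, that had received ID8-VEGF cells beneath the ovarian bursa. ID8 cells are a line from the surface epithelium of the mouse ovary, and the ID8-VEGF form expresses added vascular endothelial growth factor, so all 6 tumours share the line and the transgene. By title and donor label each mouse gave 1 late-stage primary and 1 late-stage metastatic tumour, though the source name of 1 primary tumour differs. Each tumour was measured on 1 array, which makes 3 primary and 3 metastatic arrays. The age and strain of the hosts and the site of each metastatic tumour are not given in the sources used here. The pieces hold tumour and host cells, and in such bulk samples fewer cells of a type and less RNA per cell cannot be told apart.

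In EMT, epithelial cells lose the junctions built on E-cadherin and take on vimentin filaments, N-cadherin and a migratory form. Factors of the Snail, ZEB and Twist families bind E-boxes in the control regions of epithelial genes and repress them, and ZEB factors and the microRNAs of the miR-200 family repress each other. The ovarian surface epithelium is a modified mesothelium and is known to carry keratins together with vimentin and N-cadherin, so it shows features of both states without a transition.

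The E-box bound by Snail and ZEB factors is shown here because it is the DNA element through which the repressors among these genes act. The search used CACCTG and its reverse complement CAGGTG, on either strand, in windows of 250 bases before to 50 bases after annotated starts, from RefSeq (GRCm38.p6). Cdh2 and Zeb1 were left out of this search, and no window was available for Cdh1 and Snai2. The other 6 of the 10 genes (Epcam, Vim, Snai1, Zeb2, Twist1 and Twist2) had 9 windows, several of them of Zeb2. Of these 9 windows 2 held the motif, those of Epcam and Snai1. Among all 32851 windows 20.2% held it, a share close to 2 of 9. It occurred 2 or more times in 2.88% of all windows, as in the window of Epcam. The motif is in capitals in the stretches below, which end before the annotated start. The distances are 187 and 19 bases upstream of the start for Epcam and 126 bases for Snai1. The positions are chr17:87635752-87635837 and chr17:87635920-87635978 for Epcam and chr2:167538029-167538114 for Snai1, all on the plus strand. A match of these letters is a description of the sequence and not a measured binding site.
Epcam, distal: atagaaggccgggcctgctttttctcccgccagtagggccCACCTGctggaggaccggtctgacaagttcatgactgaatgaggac
Epcam, proximal: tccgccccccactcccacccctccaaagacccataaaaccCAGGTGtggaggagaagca
Snai1: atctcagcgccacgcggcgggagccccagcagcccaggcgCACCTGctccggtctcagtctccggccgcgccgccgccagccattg

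The mature miR-200 arms that target ZEB transcripts are shown with the seed, bases 2 to 8, in capitals, since their precursor genes are among the genes measured. They fall into 2 seed groups in RefSeq (GRCm38.p6). The seed AAUACUG belongs to miR-200b (chr4:156055685-156055706) and miR-200c (chr6:124718324-124718346), and the seed AACACUG to miR-200a (chr4:156054911-156054932) and miR-141 (chr6:124717917-124717938), all on the minus strand.
miR-200b-3p: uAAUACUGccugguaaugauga
miR-200c-3p: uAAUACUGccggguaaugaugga
miR-200a-3p: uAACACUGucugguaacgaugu
miR-141-3p: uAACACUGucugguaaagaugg

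All values are log2 intensities of probe sets, and sets of 3 values follow the order of mice C1M3, C1M5, C2M3. Probe sets differ in how strongly they bind, so levels are compared between tumours for 1 gene and not between genes. As a reference for background signal, each value was set against the 1717 olfactory and vomeronasal receptor genes on the same array, genes that serve smell. Their 95th percentile was 5.85, 4.87 and 4.78 in the primary tumours of C1M3, C1M5 and C2M3 and 5.03, 5.74 and 6.11 in the metastatic tumours, so background signal was not equal between arrays. Of the 9 genes, Cdh2, Vim, Snai2 and Zeb1 lay above it on all 6 arrays, where 32.7% of all genes did. The ovarian surface and mesothelial markers Msln, Wt1, Upk3b, Lrrn4, Krt8, Krt18 and Krt19, 7 of 7 measured, also lay above it on all 6 arrays. Of the 5 measured markers of oviduct and other epithelia none did: Krt7 lay above it on 5 arrays, Ovgp1 on 3, and Pax8, Cldn4 and Cldn7 on 0.

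**Figure D1:**
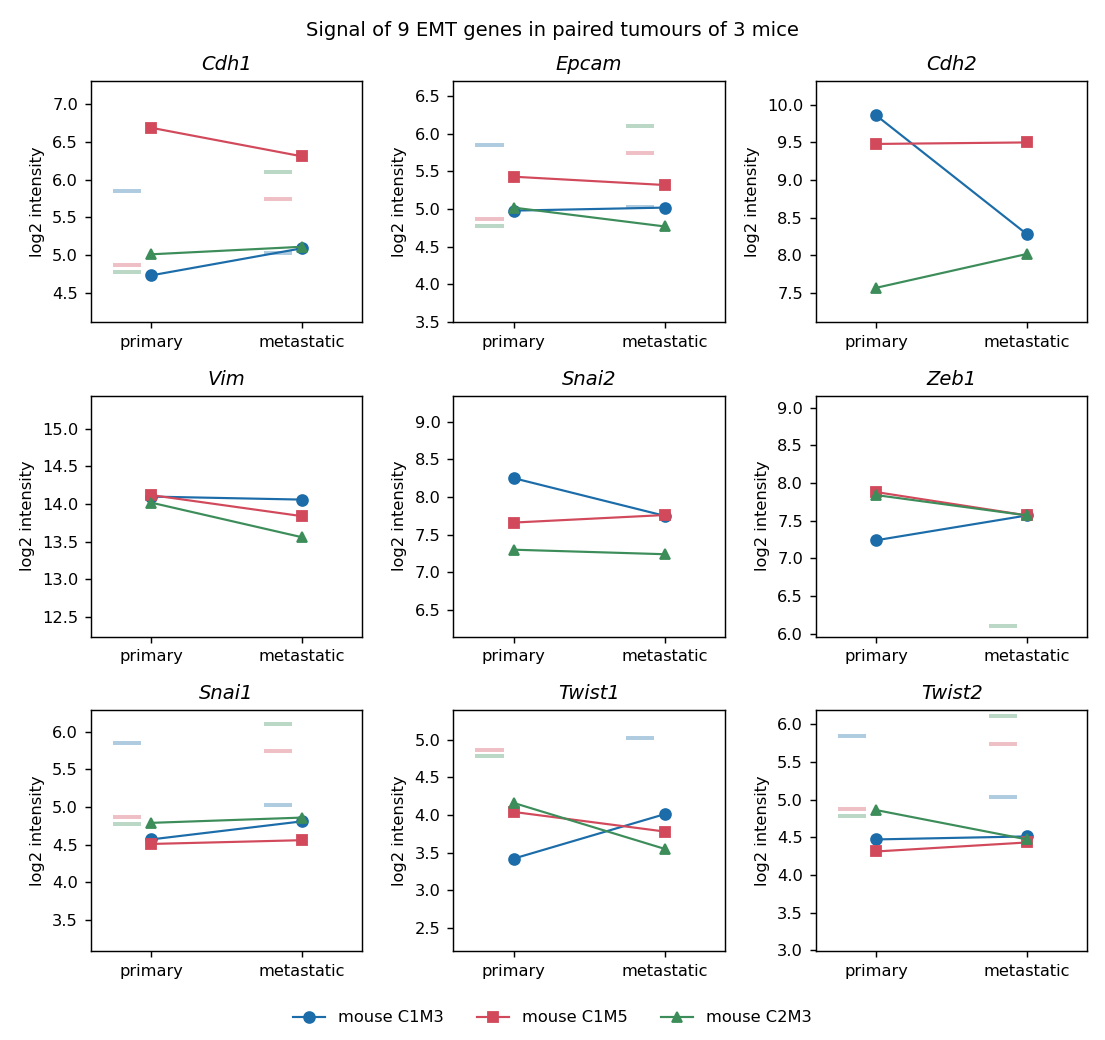
Log2 intensity of the 9 genes in the primary and the metastatic tumour of each mouse, joined by a line per mouse; every panel spans the same number of log2 units but is centred on its own gene. Short pale bars left of each group are the 95th percentile of receptor genes on that mouse's array, drawn where it falls inside the panel. Cdh1 and Epcam are highest in both tumours of C1M5, and the metastatic values of Zeb1 coincide at 7.57.

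No difference between tumour types passed the test for these genes. With limma, a linear model fitted across all genes, none of the 9 had an adjusted p under 0.05, and none of the 30142 genes did (0%). Their adjusted p ran from 0.842 to 1.0, and none had an unadjusted p under 0.05, where 4.21% of all genes did. The primary and metastatic values overlapped for all 9, while the groups did not overlap for 7.63% of all genes. Metastatic means were lower for 7 genes and higher for 2, with a median difference of -0.09, beside 43.9% of all genes lower, 55.0% higher and a median of 0.02. The difference had 1 sign in all 3 mice for Vim and Snai1, 2 of 9 genes, where 19.7% of all genes had that (8.64% lower and 11.1% higher). The p that misses the threshold does not show equal levels: with 3 arrays a group, the 95% confidence interval of the difference ran from -1.67 to 1.71 for Cdh1 and from -0.61 to 0.10 for Vim in this fit, which leaves out the mouse. With the mouse as a block the intervals were -0.55 to 0.59 for Cdh1 and -0.60 to 0.09 for Vim, and again 0 genes were called.

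**Figure D2:**
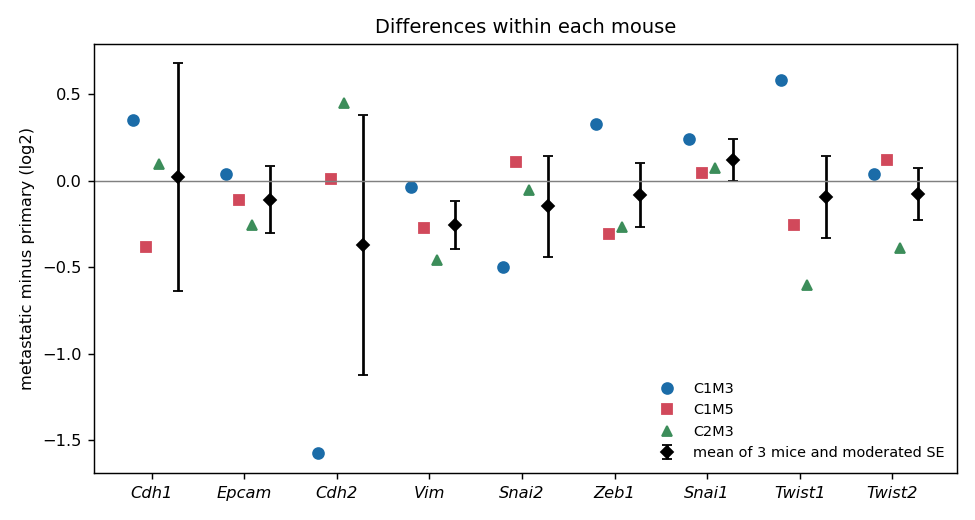
Metastatic minus primary log2 intensity of the 9 genes. Coloured points are the 3 mice, and black diamonds with bars are the mean difference and its moderated standard error from limma without the mouse as a term. Vim lies below 0 and Snai1 above 0 in all 3 mice, and the widest single difference is that of Cdh2 in C1M3 at -1.58.

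Cdh1 encodes E-cadherin, the cadherin of epithelial adherens junctions. Its log2 intensity was 4.73, 6.69 and 5.01 in primary tumours against 5.09, 6.31 and 5.11 in metastatic ones. Both tumours of C1M5 were above the other 4 arrays, and the primary and metastatic values of each mouse lay within 0.38 of each other. The 4 arrays of the other mice were low, and those of primary C1M3 and metastatic C2M3 lay below the 95th percentile of receptor genes. The primary mean was 5.48 ± 1.06 (SD, n = 3) and the metastatic mean 5.50 ± 0.70, which gives a difference of 0.02 (SE 0.66, limma adjusted p = 1.0). By mouse the difference was 0.35, -0.38 and 0.10. Its sign turned when primary C1M3 (-0.35), primary C2M3 (-0.21) or metastatic C1M5 (-0.38) was left out, and with each array centred on its median (-0.08) or quantile normalization (-0.12).

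Epcam encodes a surface adhesion molecule of most simple epithelia. It read 4.98, 5.43 and 5.02 in primary tumours against 5.02, 5.32 and 4.77 in metastatic ones. As for Cdh1, both tumours of C1M5 were the highest, though the whole range over the 6 arrays was 0.66. Only the primary tumours of C1M5 and C2M3 were above the 95th percentile of receptor genes, so most of this signal lay in the range of background. The difference was -0.11 (SE 0.20, limma adjusted p = 0.898), with primary and metastatic means of 5.14 ± 0.25 and 5.03 ± 0.28 (SD, n = 3). It was 0.035 with primary C1M5 left out and 0.03 with metastatic C2M3 left out.

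Cdh2, which encodes N-cadherin, the cadherin that mesenchymal and mesothelial cells carry, varied most of the 9 genes, with a standard deviation of 0.94 over the 6 arrays. Its values were 9.86, 9.48 and 7.57 in primary tumours against 8.28, 9.50 and 8.02 in metastatic ones. Both tumours of C1M5 and the primary tumour of C1M3 were high, both tumours of C2M3 were low, and the groups overlapped. The primary mean was 8.97 ± 1.23 (SD, n = 3) and the metastatic mean 8.60 ± 0.79, which gives a difference of -0.37 (SE 0.75, limma adjusted p = 0.910). By mouse the difference was -1.58, 0.01 and 0.45. With primary C1M3 left out it was 0.07, so its sign rested on that array.

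Vim encodes vimentin, the intermediate filament protein of mesenchymal cells. It read 14.10, 14.12 and 14.02 in primary tumours against 14.06, 13.84 and 13.56 in metastatic ones. The signal spanned 0.55 over the 6 arrays. The difference was -0.26 (SE 0.14, limma adjusted p = 0.842), from means of 14.08 ± 0.05 and 13.82 ± 0.25 (SD, n = 3). By mouse it was -0.04, -0.27 and -0.46. The primary values all lay within 0.10 of each other, and the metastatic tumour of C1M3 was inside that range.

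Snai2 encodes Slug, the Snail family repressor, and alone among the measured Snail and Twist genes lay above the background reference on all 6 arrays. It read 8.25, 7.66 and 7.30 in primary tumours against 7.75, 7.76 and 7.24 in metastatic ones. Both tumours of C2M3 were the lowest of the 6 and the primary tumour of C1M3 the highest. The difference was -0.15 (SE 0.29, limma adjusted p = 0.909), from means of 7.73 ± 0.48 and 7.59 ± 0.30 (SD, n = 3). It was -0.50, 0.11 and -0.05 within the mice. It was 0.11 with primary C1M3 left out, 0.02 with metastatic C2M3 left out and 0.02 with array weights.

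Zeb1 encodes a zinc finger and homeodomain repressor of Cdh1. It read 7.24, 7.88 and 7.84 in primary tumours against 7.57 in each metastatic one. The 3 metastatic values were the same to all deposited decimals, so their standard deviation of 0 says nothing of the spread between tumours. Exact ties are common in this table: 10.5% of all genes had 3 equal values within a group, and 51.4% had some equal values. The primary tumour of C1M3 was below the metastatic value and the other primary tumours above it, with a mean difference of -0.08 (SE 0.19, limma adjusted p = 0.920). By mouse it was 0.33, -0.31 and -0.27, and it was 0.03 with primary C1M5 left out and 0.0093 with primary C2M3 left out.

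Snai1, Twist1 and Twist2 were dim. Snai1 encodes Snail, the founding repressor of its family, and read 4.57, 4.51 and 4.79 in primary tumours against 4.81, 4.56 and 4.86 in metastatic ones. It was above the 95th percentile of receptor genes on 1 array, the primary tumour of C2M3, at 4.79 against 4.78. As deposited, the metastatic value was higher in each mouse, by 0.24, 0.05 and 0.07. The mean difference was 0.12 (SE 0.12, limma adjusted p = 0.842). It was 0.016 with each array centred on its median and 0.035 with quantile normalization. Twist1 and Twist2 encode related helix-loop-helix factors. Twist1 read 3.42, 4.04 and 4.16 in primary tumours against 4.01, 3.78 and 3.55 in metastatic ones, below the reference on all 6 arrays. Twist2 read 4.47, 4.31 and 4.86 in primary tumours against 4.51, 4.43 and 4.47 in metastatic ones, above it only in the primary tumour of C2M3. Signal in the range of receptor genes does not show that these genes are silent, only that their signal could not be told from background on these arrays. The differences were -0.09 for Twist1 (SE 0.24, adjusted p = 0.934) and -0.08 for Twist2 (SE 0.15, adjusted p = 0.910) by limma. They turned to 0.05 and 0.08 with primary C2M3 left out, and that of Twist1 to 0.02 with metastatic C2M3 left out.

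For several of the genes most of the spread over arrays lay between mice. The mouse held 95.7% of the sum of squares over the 6 arrays for Cdh1, 86.7% for Epcam, 80.6% for Snai2, 72.1% for Snai1 and 69.8% for Cdh2, against a median of 39.7% over all genes. Tumour type held 0.02% for Cdh1 and between 2.91% and 18.6% for the other genes except Vim, at 42.9%, against a median of 18.3% over all genes. After these values were seen, the mouse was tested by limma's F test with tumour type in the model. No gene of 30142 had an adjusted p under 0.05 (0%), and 1840 had an unadjusted p under 0.05 (6.1%). By limma Cdh1 had F = 31.4 with an adjusted p = 0.667 (unadjusted 0.0093), and Epcam F = 12.0 with an adjusted p = 0.784 (unadjusted 0.036). The mouse pattern did not pass the test for any of the 9 genes. With each array centred on its median or quantile normalization, F was 3.10 or 3.87 for Epcam. For Snai1 it was 5.96 as deposited and 0.79 or 0.96 in those settings. The mouse shares of these 2 dim genes thus depended on array scaling. In the same settings F was 19.7 or 17.8 for Cdh1, 8.68 or 11.7 for Cdh2 and 9.87 or 15.3 for Snai2. As deposited it was 31.4 for Cdh1, 4.11 for Cdh2 and 7.60 for Snai2. None of these passed the test: the smallest adjusted p of the 9 genes over all settings of limma's F test was 0.380. Both tumours of C1M5 were above the other 4 arrays for Cdh1 and Epcam, 2 of 9 genes, and for 5.63% of all genes. Both tumours of C2M3 were below the other 4 arrays for Cdh2 and Snai2, again 2 of 9, and for 6.91% of all genes. With 1 primary and 1 metastatic tumour a mouse, an effect of the animal cannot be told apart from any handling that the arrays of a mouse shared.

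**Figure D3:**
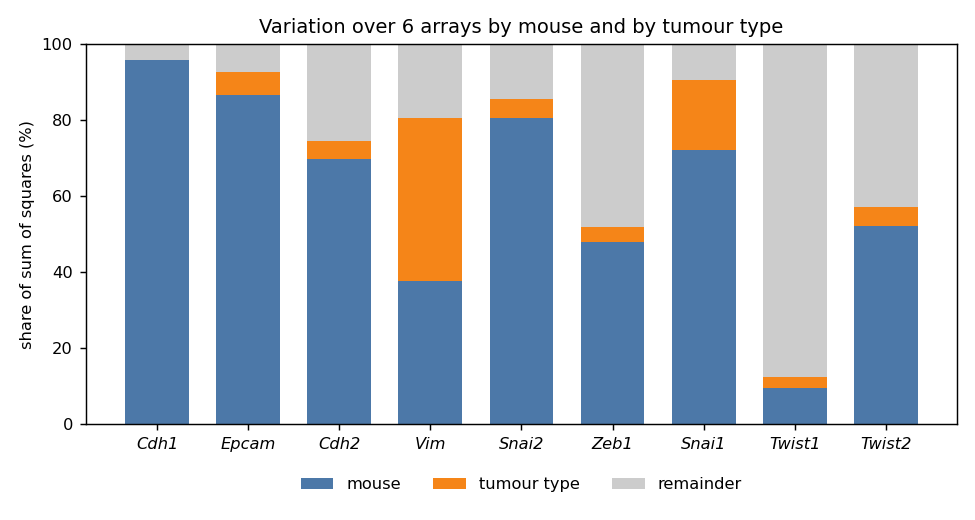
Share of each gene's sum of squares over the 6 arrays that lies between mice, between tumour types and in the remainder; each bar adds to 100%. The mouse takes 95.7% for Cdh1 and 86.7% for Epcam, and Vim has the largest share for tumour type of the 9 genes at 42.9%.

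Epithelial genes that the EMT factors repress were given a list of 28, of which 27 were measured. None passed the test in either direction, with 10 means higher and 16 lower on the metastatic side and a median of -0.01. Both tumours of C1M5 were above the other 4 arrays for 8 of the 27: Krt8, Krt18, Krt19 and Krt7, keratins of simple epithelia, Dsp and Dsg2 of desmosomes, and Tjp1 and F11r of tight junctions. These 8 were picked out after their values were seen, and the share over all genes was 5.63%. Krt19 read 13.99, 16.11 and 13.41 in primary tumours against 13.54, 16.65 and 14.35 in metastatic ones. Msln, the mesothelial surface protein mesothelin, read 7.21, 10.91 and 8.02 in primary tumours against 7.69, 11.13 and 7.15 in metastatic ones. Both thus had the same highest mouse as Cdh1. Of the 7 ovarian surface and mesothelial markers, both tumours of C1M5 were above the other 4 arrays for 4. These were Msln, Krt8, Krt18 and Krt19, and not Wt1, Upk3b and Lrrn4. Cldn4, Cldn7 and Ocln of tight junctions lay below the receptor reference on all 6 arrays, with all values between 4.01 and 4.19. The largest mean differences were those of Krt18 (-0.85, SE 0.50), Krt8 (-0.61, SE 0.88), Cldn3 (-0.41, SE 0.35) and Dsg2 (0.38, SE 0.22), none past the test. Cldn3 too lay below the receptor reference on all 6 arrays, so its difference lay in the range of background.

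Regulators that hold cells in the epithelial state made a list of 12, all measured. None passed the test, with 2 higher, 9 lower and a median difference of -0.05. Klf4, a zinc finger factor that activates Cdh1, alone among them lay above the receptor reference on all 6 arrays. It read 8.78, 10.43 and 8.02 in primary tumours against 8.29, 9.98 and 7.45 in metastatic ones. As for Cdh1, C1M5 was highest in both tumour types, and the mouse held 94.3% of its sum of squares (F test adjusted p = 0.418). Its difference between tumour types was -0.50 (SE 0.92, limma adjusted p = 0.900), with -0.50, -0.44 and -0.57 within the mice. With the mouse as a block in limma its SE was 0.057 and its unadjusted p 0.0029, and it did not pass the test there either (adjusted p = 0.841). Klf4 was not alone in this. In the same limma fit Fn1, of the mesenchymal list, had an SE of 0.059, an unadjusted p of 0.0067 and an adjusted p of 0.841. Fn1 was higher in the metastatic tumour of each mouse, by 0.46, 0.41 and 0.31. Of all genes 8.64% were lower and 11.1% higher in all 3 mice. The groups did not overlap for Klf5, a related factor of epithelia, and for no other of the 12 regulators. Over all genes 2.84% did not overlap with metastatic tumours lower, and 7.63% in either direction. Klf5 read 5.90, 5.79 and 6.54 in primary tumours against 5.71, 5.64 and 5.59 in metastatic ones. Its difference was -0.43 (SE 0.21, limma adjusted p = 0.842). Klf5 lay above the receptor reference on 4 arrays, and the arrays below were metastatic C1M5 and metastatic C2M3. Grhl2, Ovol2 and Esrp1, a grainyhead factor, a zinc finger repressor of Zeb1 and a splicing factor of epithelia, stayed between 3.78 and 4.56 on all arrays.

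The precursor genes of miR-200 were also dim. Mir200a, Mir200b, Mir200c, Mir141 and Mir34a, 5 of the 7 listed microRNA genes, had a named probe set, none lay above the receptor reference on all arrays, and none passed the test. Mir200c read 4.52, 4.18 and 4.11 in primary tumours against 4.53, 4.59 and 4.27 in metastatic ones. Mir200a, which carries the other seed, read 3.98, 4.20 and 4.20 in primary tumours against 4.13, 4.24 and 4.30 in metastatic ones. Their differences were 0.19 (SE 0.15) and 0.10 (SE 0.09). The largest difference of the 5 was that of Mir34a (0.39, SE 0.39). A probe set of a precursor gene does not measure the mature strands printed above.

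Other transcription factors linked to EMT numbered 12 measured of 13. None passed the test, with 2 means higher and 10 lower on the metastatic side and a median of -0.15, the lowest median of the EMT lists. The groups did not overlap for Tcf3 and Sox9, 2 of 12 genes, where 2.84% of all genes did not overlap with metastatic tumours lower. Sox9, a factor of progenitor and ductal cells, read 10.83, 10.17 and 10.03 in primary tumours against 9.94, 9.77 and 8.80 in metastatic ones, a difference of -0.84 (SE 0.39, limma adjusted p = 0.842). Tcf3, which encodes the E-box factor E2A, read 6.34, 6.28 and 6.25 in primary tumours against 6.16, 5.95 and 5.86 in metastatic ones, a difference of -0.30 (SE 0.09, limma adjusted p = 0.842). That the metastatic value of both was the lower in each of the 3 mice follows from the lack of overlap. Tcf4, another E-box factor (-0.39, SE 0.61), and Foxc2, a forkhead factor (-0.27, SE 0.25), were the others of the 4 largest in size. Foxc2 was above the receptor reference only in the primary tumour of C2M3, at 5.23 against 4.40 to 4.43 on the other arrays. Prrx1, a mesenchymal homeobox factor, was lowest in both tumours of C1M3 at 5.65 and 5.96, against 6.78 to 7.48 on the other arrays.

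Of 21 other cadherins, all measured, none passed the test, with 9 higher, 11 lower and a median difference of -0.02. Only Cdh3, Cdh5 and Cdh11 were above the receptor reference on all 6 arrays. Cdh3, P-cadherin, read 6.72, 8.51 and 8.52 in primary tumours against 8.91, 8.23 and 8.23 in metastatic ones. Cdh11, a cadherin of mesenchymal cells, read 7.62, 10.29 and 10.70 in primary tumours against 9.47, 9.45 and 9.50 in metastatic ones. Cdh5, the cadherin of vessel endothelium, read 7.30, 8.84 and 10.94 in primary tumours against 8.86, 6.85 and 8.84 in metastatic ones. The largest mean differences were those of Cdh5 (-0.85, SE 1.12), Cdh19 (0.66, SE 0.69), Cdh3 (0.54, SE 0.57) and Cdh13 (-0.29, SE 0.34). Cdh19 was above the receptor reference only in the metastatic tumour of C2M3, at 6.33 against 4.03 to 4.35 on the other arrays. For Cdh3 and Cdh11 the primary tumour of C1M3 was the lowest array. It was the lowest for Cdh1, Zeb1 and Twist1 too but the highest for Cdh2 and Snai2. Of 10 measured partners of cadherins, catenins among them, 3 were higher and 7 lower with a median of -0.11 and no call. Vcl, the actin linker vinculin, read 12.24, 12.32 and 12.15 in primary tumours against 11.85, 12.06 and 10.69 in metastatic ones, a difference of -0.70 (SE 0.38). Its groups did not overlap, which of the 10 partners held for Vcl alone and with metastatic tumours lower for 2.84% of all genes. Next in size were Jup, plakoglobin (-0.31, SE 0.42), Ctnna2, an alpha-catenin (-0.26, SE 0.45), and Ctnnd1, p120-catenin (0.20, SE 0.13). Ctnna1, alpha-catenin, was highest in both tumours of C1M5, at 8.73 and 8.57 against 7.35 to 8.22.

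Mesenchymal genes, 23 measured of 25, split into 12 higher and 11 lower on the metastatic side, with a median of 0.11 and no call. The primary tumour of C1M3 was the lowest array for 18 of the 23. Col1a1, a chain of type I collagen, read 6.44 there, against 7.79 to 10.73 on the other arrays. Fn1, fibronectin, was highest in both tumours of C1M5, at 15.26 and 15.66 against 13.44 to 13.90, and so was S100a4, at 7.49 and 8.18 against 5.42 to 6.29. These 2 of 23 genes were picked out after their values were seen, where 5.63% of all genes had both tumours of C1M5 above the other 4 arrays. The largest mean differences were those of Postn, the matrix protein periostin (-0.85, SE 0.77), Mmp2, a matrix protease (0.63, SE 1.42), Col1a1 (0.59, SE 1.24) and Thbs1, thrombospondin (0.57, SE 0.54). The 17 measured inducers of EMT, such as the Tgfb ligands, had 11 higher and 6 lower means, a median difference of 0.06 and no call. Those of Tgfb2 (0.78, SE 0.45) and Tgfb3 (0.42, SE 0.65), ligands, Tgfbr1, their receptor (0.36, SE 0.17), and Smad3, a signal transducer (-0.30, SE 0.29), were the largest in size.

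**Figure D4:**
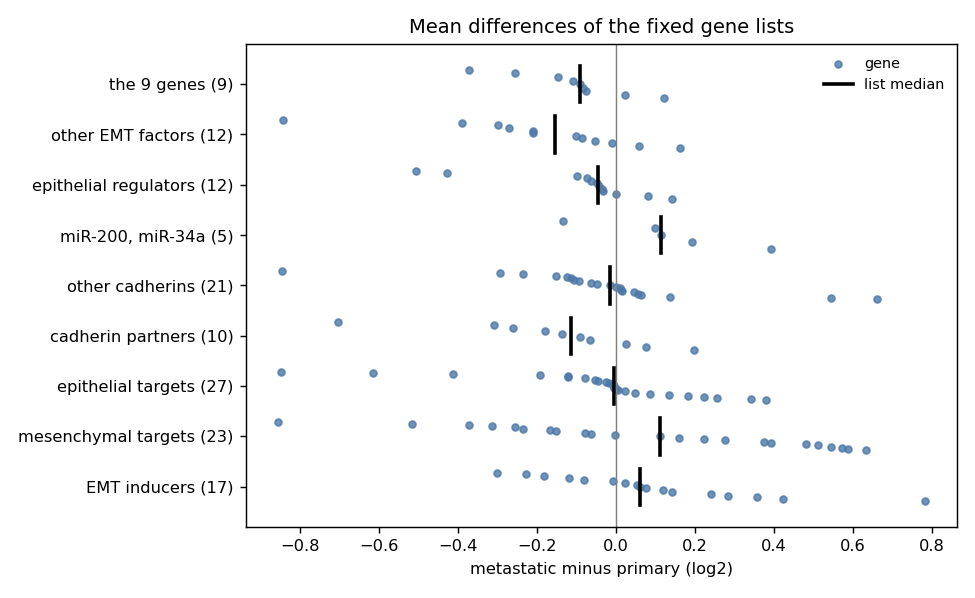
Mean difference between metastatic and primary tumours for each measured gene of the lists, with the number measured in brackets; points are genes and black bars are list medians. The medians lie between -0.15 for other EMT factors and 0.11 for mesenchymal targets and the microRNA genes, and no gene passed the test.

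Host cell markers differed between the same arrays, and their part in these values was not tested. In the primary tumour of C1M3 all 7 macrophage markers were at their lowest, with a list mean of 5.88 against 7.37 to 8.32 on the other arrays. Fibroblast markers, 5 measured of 6, had a mean of 7.07 there against 8.18 to 9.72, and 4 of them were at their lowest. Proliferation markers, 4 of 4, were highest there, with a mean of 10.6 against 7.57 to 9.31. Endothelial markers, 5 of 5, ranged from 6.09 in the metastatic tumour of C1M5 to 8.95 in the primary tumour of C2M3, and adipocyte markers, 5 of 5, from 5.14 to 11.2, with the primary tumours of C1M5 and C2M3 high. The array on which the sign of the Cdh2 difference rested is thus the one with the lowest macrophage and fibroblast signal.

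The genes whose values over the 6 arrays were most like those of Cdh1 and Cdh2 were taken by Pearson's r among named genes above the median level that varied at least moderately. For Cdh1 they were Pmaip1, which encodes the cell death protein Noxa (r = 0.995), Slc37a1, a sugar phosphate transporter gene (r = 0.995), and Ceacam2, an adhesion molecule gene (r = 0.991), of 2500 candidates. Pmaip1 read 4.66, 9.15 and 5.56 in primary tumours against 5.58, 7.99 and 5.82 in metastatic ones. That it was highest in C1M5, as Cdh1 was, follows from its choice by r. For Cdh2 they were Polr2d, an RNA polymerase II subunit gene (r = 0.958), the pseudogene Got2-ps1 (r = 0.951) and Hpse, which encodes heparanase (r = 0.938), of 1940 candidates. These r describe 6 arrays that share 3 mice, and with so many candidates high values arise readily.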

How the data were processed

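The authors deposited log2 intensities of probe sets, with RMA and Transcriptome Analysis Console named in the submitters' processing notes without versions. RMA corrects background, normalizes by quantiles and summarises probes. The genome build of the array annotation is not given in the sources used here. Groups came from the tissue label and mice from the donor label. The primary tumour here called C2M3 is so named by title and donor, while its source name reads C2M2. Of 65956 probe sets that are not controls, 30604 carried 1 gene symbol, 2146 several and 33206 none. Symbols of 827 were updated with a RefSeq table of GRCm38.p6, and the probe set with the highest mean stood for a gene, which gave 30142 genes.

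Metastatic minus primary was tested with limma 3.58.1 in R 4.3.3, two-sided, with tissue as the only term, Benjamini-Hochberg adjustment over all genes and a threshold of 0.05. No low-value filter was applied. The mouse as a block was an alternative; deviations of the tumours of C1M3, C1M5 and C2M3 from their group means correlated with r = -0.05, 0.35 and 0.07, and the pairing follows from the shared animal. The fit was also run on simulated data whose noise was independent between arrays, so that run says nothing of tumours that share a mouse. No set test was used. The 10 genes and the lists were chosen with earlier results of these data known. Named genes were the 10, up to 4 of each list by size of difference, the regulator and microRNA lists, and 3 nearest genes for Cdh1 and for Cdh2, which varied most. Nearest genes had a standard deviation of at least that of the gene divided by 2. Other list genes were chosen after their values were seen. The F test of the mouse was also added then. The number of arrays limits the precision.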

Additional observations from a re-analysis of the deposited data

How the results depend on the processing

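No gene was called between tumour types in any of 15 alternative settings, and the smallest adjusted p of the 9 genes over them was 0.305. With the mouse as a replicate block 0 genes were called, and the block changed no other call. Vim and Snai1 kept their sign in every setting that tested them. The difference of Snai1 shrank to 0.016 with each array centred on its median and 0.035 with quantile normalization, so its size depended on array scaling. Leaving out 1 array moved Cdh1 between -0.38 and 0.63, Cdh2 between -1.07 and 0.073, Epcam between -0.25 and 0.035, Snai2 between -0.37 and 0.11, Zeb1 between -0.29 and 0.030, Twist1 between -0.32 and 0.051 and Twist2 between -0.19 and 0.082. Without both tumours of C1M3, with the replicate block, Cdh1 was -0.14, Cdh2 0.23 and Snai2 0.027. Without those of C1M5 Zeb1 was 0.030. Without those of C2M3 Cdh1 was -0.014, Zeb1 0.0093, Twist1 0.16 and Twist2 0.080. Cdh1 was -0.083 with each array centred on its median, -0.12 with quantile normalization and -0.35 with array weights, where Snai2 was 0.020. The cause of these turns was not tested. The median difference over all genes was 0.02 as deposited, -0.09 with centring and -0.06 with quantile normalization. Between mice 1 gene, none of the 9, was called when tissue was left out of the model, and 0 in the other settings. Taking genes above the median level left out Snai1, Twist1 and Twist2.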
